A study of Mus musculus with 64 samples.

Results

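The 43 genes described here carry out or time the copying of DNA in S phase of the cell cycle. They were chosen by gene symbol and not by a measured value, though with earlier results of these data known. Of the 43, 40 had a probe with that symbol on the array, and 36 of these had a probe above background and were tested, among 10495 tested genes of 16593 on the array. Gmnn, Orc1, Pola1 and Prim1 had probes that stayed below background, and Gins1, Gins2 and Rfc3 were not analysed here.

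Before S phase, the origin recognition complex, Cdc6 and Cdt1 load a ring of MCM proteins on DNA, which is called licensing, and geminin (Gmnn) holds Cdt1 back until the next cycle. Mcm10, Cdc45 and the GINS proteins then turn the ring into an active helicase, polymerases fill in nucleotides behind it on the Pcna clamp, and Fen1 and Lig1 join the pieces of the lagging strand. Cyclin E and E2F transcription factors set the start of the phase, many of the genes are known E2F targets, and most hepatocytes of an adult liver are in a resting state in which these genes are little used.

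RNA came from livers and liver tumours of male C57BL/6 mice that had each received 50 mg/kg diethylnitrosamine, a liver carcinogen, by intraperitoneal injection at 2 weeks of age. Every group, placebo included, carried that exposure, so the livers are livers of exposed animals and not of untreated ones. From about 44 weeks of age the mice were gavaged with 2 doses a day for 28 days, and tissue was collected at 48 weeks after a fast of 3 h. The treatments were placebo; 30 mg/kg BEZ235, a compound that blocks the catalytic sites of PI3K and mTOR; 10 mg/kg RAD001 (everolimus), which inhibits mTOR complex 1 together with FKBP12; and both compounds together, at 2.5 mg/kg RAD001 and 18 mg/kg BEZ235, called the combination here. The final dose of BEZ235 preceded sacrifice by 1 h, and that of RAD001 was given as the fast began. The doses of the combination were lower than those of the compounds given alone, so its comparison with each of them is not at matched dose.

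The 64 arrays came from 31 animals. There were 27 livers, from 7 placebo, 6 BEZ235, 7 RAD001 and 7 combination animals. The 37 tumours were 10 from 6 animals in each of the placebo, BEZ235 and RAD001 groups and 7 from 4 animals in the combination group. Tumours of an animal were averaged, so n counts animals. Levels are given as log2 of the background-corrected probe intensity plus 16, and a difference on this scale understates the change of a dim probe. A level of 4.92 marks the background limit, at 2 noise standard deviations. No probe's level is set against that of another gene. Tests are limma's moderated test with Benjamini-Hochberg adjustment over all 10495 genes and a limit of 0.05, and all adjusted p-values below are of that kind.

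Hepatocyte markers were bright in all groups, with 9 of 10 listed markers tested and Tat not above background. Their mean log2 level was 12.6 ± 0.08 (SD, n = 7) in placebo livers and 12.1 ± 0.23 (SD, n = 6) in placebo tumours. A score over 1057 genes that separated placebo tumours from placebo livers, set to average near 0 in those livers and near 1 in those tumours, was 0.82 to 1.10 in placebo tumours. It was below 0.6 in the tumours of 4 treated animals, at 0.298 for BEZ235 animal 693, 0.447 and 0.566 for RAD001 animals 732 and 730, and 0.384 for combination animal 773. These 4 animals gave 5 tumours, and the counts and calls between tumour and liver, with the values of the genes they moved most, are also given without those tumours. This choice was made after seeing the data. The tumours were picked for lying toward liver, so leaving them out can by itself widen a difference between tumour and liver. Their replication genes did not all lie toward liver. The mean tumour level of Mcm2 to Mcm7 was the highest of its group in 732 and 773 (7.36 and 7.12). It was 6.83 in 730 and the lowest of its group in 693 (6.06). Without these tumours the Uhrf1 difference fell from 2.98 to 2.62 under RAD001 and from 1.86 to 1.53 under the combination. Under BEZ235 it rose from 2.23 to 2.48.

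In placebo animals 17 of the 36 genes were higher in tumour than in liver and 3 were lower, beside 18.8% of all tested genes higher and 16% lower. The genes that rose most were Uhrf1, Mcm5, Rrm2, Mcm6, Lig1 and Mcm2, and those that fell were Mcm10, Tk1 and Dut. The median difference of the 36 genes was 0.47 on the log2 scale, against 0.01 for all genes, and 28 of the 36 were above 0. In 12 of the 36 the tumour and liver values of the placebo animals did not overlap, where 17.6% of all tested genes did not. With the animal as a fixed block, that is over the 4 placebo animals with both tissues, 9 of the 36 genes passed, 7 higher and 2 lower. The share of all tested genes under that block is not given here.

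The same comparison was made within each treatment. In BEZ235 animals 13 genes were higher and 3 lower, beside 14% and 12.1% of all genes. In RAD001 animals 21 were higher and 1 was lower, beside 14.7% and 13.7%, and in combination animals 10 were higher and 2 lower, beside 10.5% and 8.72%. The median difference of the 36 genes was 0.36, 0.57 and 0.36 in these 3 treatments, while that of all genes was -0.00, -0.01 and 0.00. Rfc2, Fen1, Tyms, Mcm2, Lig1, Mcm6, Mcm5 and Uhrf1 were higher in tumour under all 4 treatments, which is 22.2% of the 36 genes, where 7.12% of all tested genes did so. Under the fixed block Rfc2 missed the limit in placebo and combination animals (adjusted p = 0.0511 and 0.104) and Fen1 in placebo animals (adjusted p = 0.0555), and the other 6 passed under all 4 treatments. Mcm10 was the gene of the 36 that was lower under all 4 treatments, 2.78% against 6.12% of all tested genes, and 11 genes, 30.6% against 54.9%, passed in none (Ccne2, Pcna, Pold2, Prim2, Pola2, Orc6, Rfc5, Mcm3, E2f1, Cdc45 and Chaf1a).

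Without the tumours of the 4 low-score animals 22, 17, 21 and 10 genes passed in placebo, BEZ235, RAD001 and combination animals. The share of all tested genes in that fit is not given here, so whether these counts moved apart from those of all genes was not tested. Placebo animals, whose arrays stayed the same but share the spread of the fit, gained Chaf1a and Rrm1 (adjusted p = 0.0413 and 0.0167). BEZ235 animals lost Dut (adjusted p = 0.0554) and gained Chaf1b and Rrm1 (adjusted p = 0.046 and 0.0401). RAD001 animals lost Cdc6, Pole and Rfc4 (adjusted p = 0.157, 0.182 and 0.16) and gained Ccne1 and Tk1 (adjusted p = 0.034 and 0.0126). Combination animals lost Cdt1, Chaf1b and Rfc2 (adjusted p = 0.197, 0.243 and 0.35) and gained Dut (adjusted p = 0.011).

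**Figure D1:**
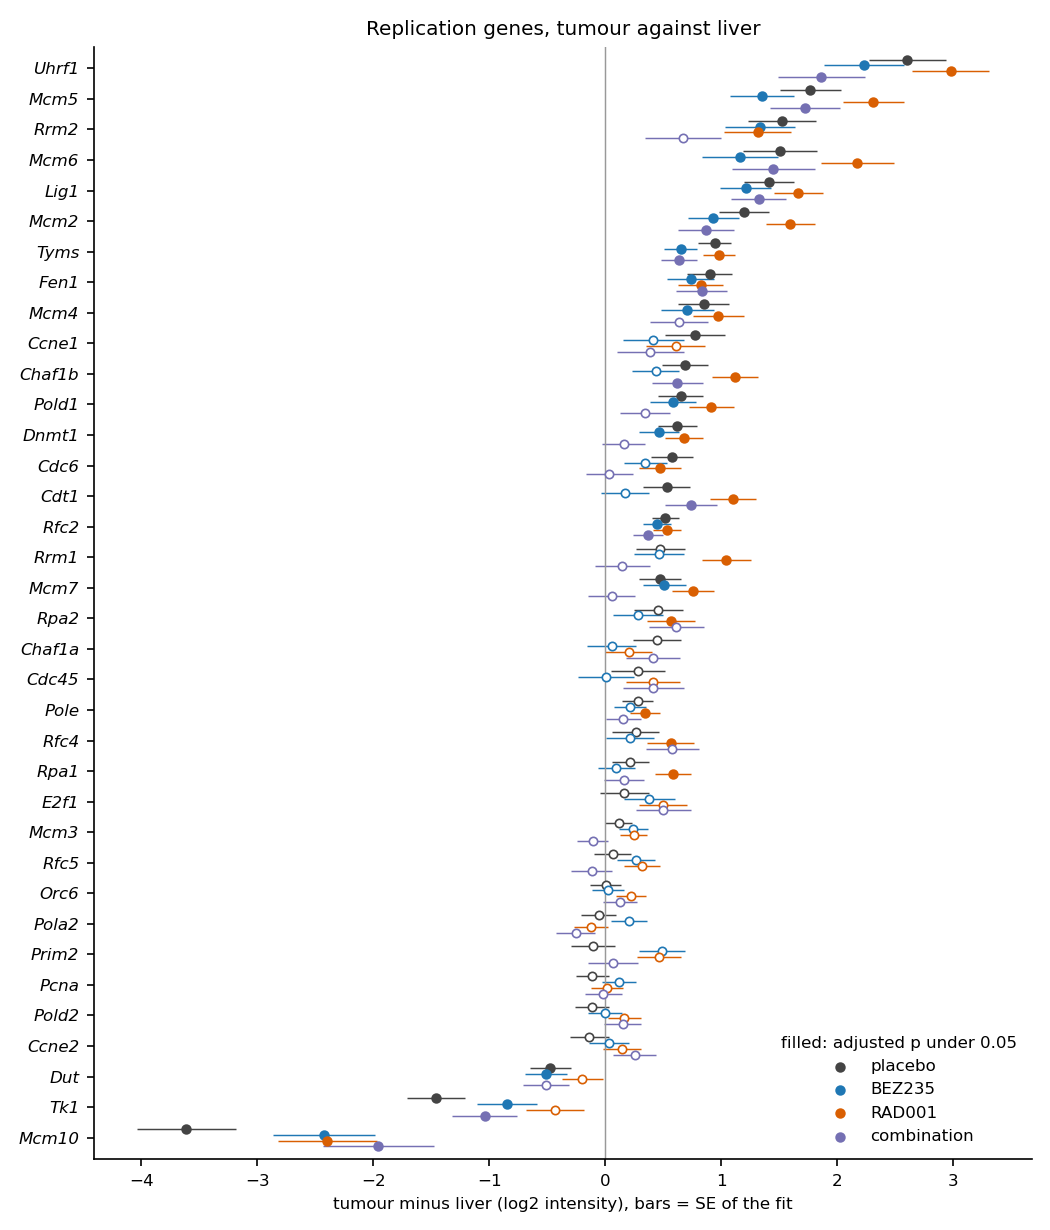
Difference in log2 level between tumour and liver of each of the 36 tested genes, by treatment, from the limma fit over all 8 groups, with bars for the standard error and filled points for an adjusted p under 0.05. Uhrf1, Mcm5, Mcm6 and Lig1 lie on the higher side and Mcm10 on the lower side under all 4 treatments.

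Promoters of 5 genes that moved in these comparisons are printed because they hold, or lack, the words searched for. They are RefSeq sequences on build GRCm38.p6, of 250 bases before to 50 bases after a listed transcription start, read 5′ to 3′ on the strand of the gene. Capitals mark an E2F word (TTTCCCGC, TTTCGCGC, TTTGCCGC or TTTGGCGC, on either strand) or CCAAT on either strand. The first 3 belong to genes that were higher in tumour under all 4 treatments and hold an E2F word in a listed window. The last 2 belong to genes that were lower under at least 3. Uhrf1 lies at chr17:56304063-56304362 (plus strand, 1 of 2 listed starts), Lig1 at chr7:13278576-13278875 (plus strand, 1 of 3 listed starts), Mcm5 at chr8:75109259-75109558 (plus strand), Mcm10 at chr2:5012742-5013041 (minus strand) and Tk1 at chr11:117825965-117826264 (minus strand).
Uhrf1: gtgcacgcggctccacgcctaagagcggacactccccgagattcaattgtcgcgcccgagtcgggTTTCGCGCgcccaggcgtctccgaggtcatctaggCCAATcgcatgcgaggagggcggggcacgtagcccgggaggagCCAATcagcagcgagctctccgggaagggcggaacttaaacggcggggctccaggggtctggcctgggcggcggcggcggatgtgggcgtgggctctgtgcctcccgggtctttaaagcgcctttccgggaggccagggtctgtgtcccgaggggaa
Lig1: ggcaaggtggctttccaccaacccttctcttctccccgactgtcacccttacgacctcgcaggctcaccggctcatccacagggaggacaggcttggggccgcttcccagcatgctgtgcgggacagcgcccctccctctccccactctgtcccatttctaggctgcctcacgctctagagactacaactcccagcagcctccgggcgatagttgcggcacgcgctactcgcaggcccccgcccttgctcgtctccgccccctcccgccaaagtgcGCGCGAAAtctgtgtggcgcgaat
Mcm5: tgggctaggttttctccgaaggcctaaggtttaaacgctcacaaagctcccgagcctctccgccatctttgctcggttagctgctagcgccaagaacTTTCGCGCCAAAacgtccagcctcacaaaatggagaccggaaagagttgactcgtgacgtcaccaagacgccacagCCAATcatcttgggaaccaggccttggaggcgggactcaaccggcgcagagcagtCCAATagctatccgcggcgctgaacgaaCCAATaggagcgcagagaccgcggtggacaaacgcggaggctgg
Mcm10: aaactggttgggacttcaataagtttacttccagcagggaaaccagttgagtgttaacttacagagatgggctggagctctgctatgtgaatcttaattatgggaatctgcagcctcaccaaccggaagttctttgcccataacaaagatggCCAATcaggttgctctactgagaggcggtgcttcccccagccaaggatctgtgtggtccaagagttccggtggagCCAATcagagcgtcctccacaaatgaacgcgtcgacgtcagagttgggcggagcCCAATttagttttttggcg
Tk1: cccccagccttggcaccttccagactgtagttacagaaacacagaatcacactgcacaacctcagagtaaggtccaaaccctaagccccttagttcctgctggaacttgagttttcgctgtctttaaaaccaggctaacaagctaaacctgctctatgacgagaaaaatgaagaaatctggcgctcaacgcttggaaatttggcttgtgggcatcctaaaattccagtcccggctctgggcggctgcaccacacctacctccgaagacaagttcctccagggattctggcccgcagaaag

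Uhrf1 held the word TTTCGCGC from base -185 to base -178, counted from the start site. Lig1 held the same word on the opposite strand, from base 27 to base 34. For a gene with several listed starts the window with the most E2F words was printed. The other listed windows of Uhrf1 and Lig1 held no E2F word. In Mcm5 TTTCGCGC from -153 to -146 overlapped TTTGGCGC, on the opposite strand, from -149 to -142. The Mcm10 window held 3 CCAAT words and no complete E2F word, and the Tk1 window held neither. The Mcm10 window ends in tttggcg, so whether the word TTTGGCGC crosses its edge was not tested.

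Promoters were found for 35 of the 43 genes, with 43 starts between them, and Ccne2, Gins1, Gins2, Mcm4, Rfc2, Prim2, Pole and Gmnn were not matched. An E2F word stood in 13 of the 43 windows, 30.2%, against 744 of 32851 windows of all genes, 2.26%. CCAAT stood in 24 of the 43, 55.8%, against 37.4% of all windows. The genes with an E2F word were Cdc6, Cdt1, Dnmt1, Lig1, Mcm3, Mcm5, Mcm6, Mcm7, Orc1, Pola1, Pold1, Rfc3 and Uhrf1. Of the 8 genes higher in tumour under all 4 treatments, 7 had a window and 4 of those held an E2F word in any listed window. A word found this way describes the sequence and says nothing of whether a factor was bound.

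Of the licensing factors, Cdc6 and Cdt1 were higher in placebo tumours by small steps. Cdc6, the loader ATPase, was 4.86 ± 0.37 (SD, n = 7) in placebo liver and 5.46 ± 0.46 (SD, n = 6) in placebo tumour, a difference of 0.58 ± 0.18 (SE; adjusted p = 0.0102). The groups overlapped, at 4.43 to 5.36 and 4.78 to 5.94, close to the background limit, and a second, dimmer Cdc6 probe went the other way, by -0.15. Its difference was 0.48 (adjusted p = 0.0403) under RAD001, 0.35 (adjusted p = 0.175) under BEZ235 and 0.03 (adjusted p = 0.943) under the combination.

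Cdt1, the partner of Cdc6, was 6.78 ± 0.27 in placebo liver and 7.32 ± 0.35 in placebo tumour, with ranges that met (6.50 to 7.17 and 6.98 to 7.93), and the difference was 0.53 ± 0.20 (SE; adjusted p = 0.0346). Under RAD001 the tumours, at 7.09 to 8.15, lay above all livers, at 6.05 to 6.79, and the difference was 1.10 (adjusted p = 2.78e-05). Under the combination it was 0.74 (adjusted p = 0.0156), and under BEZ235 0.18 (adjusted p = 0.593). The combination call rested on animal 773, without which the adjusted p was 0.35. The placebo call ended without any of the animals 724, 747, 748, 769 or 776 (adjusted p 0.0674 to 0.122), and the RAD001 call for Cdc6 ended without 700, 730, 732, 760 or 772 (adjusted p 0.0504 to 0.141). Orc6, a subunit of the origin recognition complex, passed nowhere, with differences of 0.00, 0.02, 0.22 and 0.13 in the order placebo, BEZ235, RAD001 and combination, and adjusted p-values of at least 0.211.

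Of the MCM ring itself, Mcm2, Mcm4, Mcm5, Mcm6 and Mcm7 were higher in placebo tumours, while Mcm3 could not be told from background in most samples. Mcm2 ran from 5.05 over a median of 5.48 to 5.76 in placebo livers and from 6.30 over 6.49 to 7.18 in placebo tumours. The groups did not overlap, and the difference was 1.20 ± 0.21 (SE), 2.30-fold (adjusted p = 1.31e-05). Mcm2 was above background on 5 of 6 BEZ235 and 5 of 7 combination liver arrays. In RAD001 livers it was above background on none of the 7 arrays, at 4.65 to 4.88, and RAD001 tumours, at 5.77 to 7.44, were at least 2.75-fold brighter (adjusted p = 1.09e-07).

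BEZ235 livers ran from 4.87 to 6.03 and BEZ235 tumours from 6.06 to 7.07 for Mcm2, again apart, by 0.94 (adjusted p = 0.00106). The 4 combination tumours, at 5.84, 6.00, 6.27 and 6.30, met the top of the combination livers, at 4.53 to 5.89, and the difference was 0.87 (adjusted p = 0.00699).

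Mcm5 had the largest difference of the ring in placebo animals. Placebo livers lay at 6.06, 6.55 and 6.94 (lowest, median, highest) and placebo tumours at 7.36, 8.13 and 9.34, with no overlap. The difference was 1.77 ± 0.27 (SE), 3.41-fold (adjusted p = 6.2e-07), and it was 1.35 under BEZ235 (adjusted p = 0.000181), 2.32 or 4.98-fold under RAD001 (adjusted p = 5.26e-09) and 1.73 under the combination (adjusted p = 4.05e-05). As animal means, tumours and livers were apart under every treatment for this gene, though single tumours of combination animal 726 were not. The 4 combination tumours were at 6.76, 7.55, 7.87 and 8.62, against at most 6.64 in combination livers.

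Mcm6 went the same way with a broader spread. It ran from 5.50 over 5.80 to 6.36 in placebo livers and from 6.48 over 7.42 to 8.25 in placebo tumours, and the groups were apart by 1.51 ± 0.32 (SE), 2.84-fold (adjusted p = 0.000154). Under RAD001, where 5 of 7 liver arrays were above background, the difference was 2.18 (adjusted p = 6.17e-07), and under the combination 1.45 (adjusted p = 0.00256), with tumours at 6.29, 6.44, 7.10 and 8.16. Under BEZ235 it was 1.16 (adjusted p = 0.00584), and there the tumour of animal 693, at 5.26, fell among the livers, at 5.08 to 6.37. With the tumours of the low-score animals left out, the BEZ235 difference of Mcm6 was 1.53 and the combination difference 1.07.

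Mcm4 was 7.79 ± 0.19 in placebo livers and 8.66 ± 0.50 in placebo tumours, and differed by 0.85 (adjusted p = 0.00192). Its differences under BEZ235, RAD001 and the combination were 0.71 (adjusted p = 0.0166), 0.98 (adjusted p = 0.000563) and 0.64 (adjusted p = 0.0645). Mcm7 was near the background limit, at 4.72 ± 0.22 and 5.21 ± 0.56, and differed by 0.47 in placebo animals (adjusted p = 0.0365), 0.51 under BEZ235 (adjusted p = 0.0361), 0.76 under RAD001 (adjusted p = 0.00101) and 0.06 under the combination (adjusted p = 0.898). The placebo call for Mcm7 ended without any of 724, 747, 748, 769 or 776 (adjusted p 0.0533 to 0.176), and its BEZ235 call without any of 693, 697, 712 or 755 (adjusted p 0.0827 to 0.188). Without animal 755 the BEZ235 call for Mcm4 ended too (adjusted p = 0.126). Mcm3 was above background on 0 of 7 placebo liver arrays and 3 of 10 placebo tumour arrays, and its differences of 0.12, 0.24, 0.25 and -0.11 passed under no treatment.

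**Figure D2:**
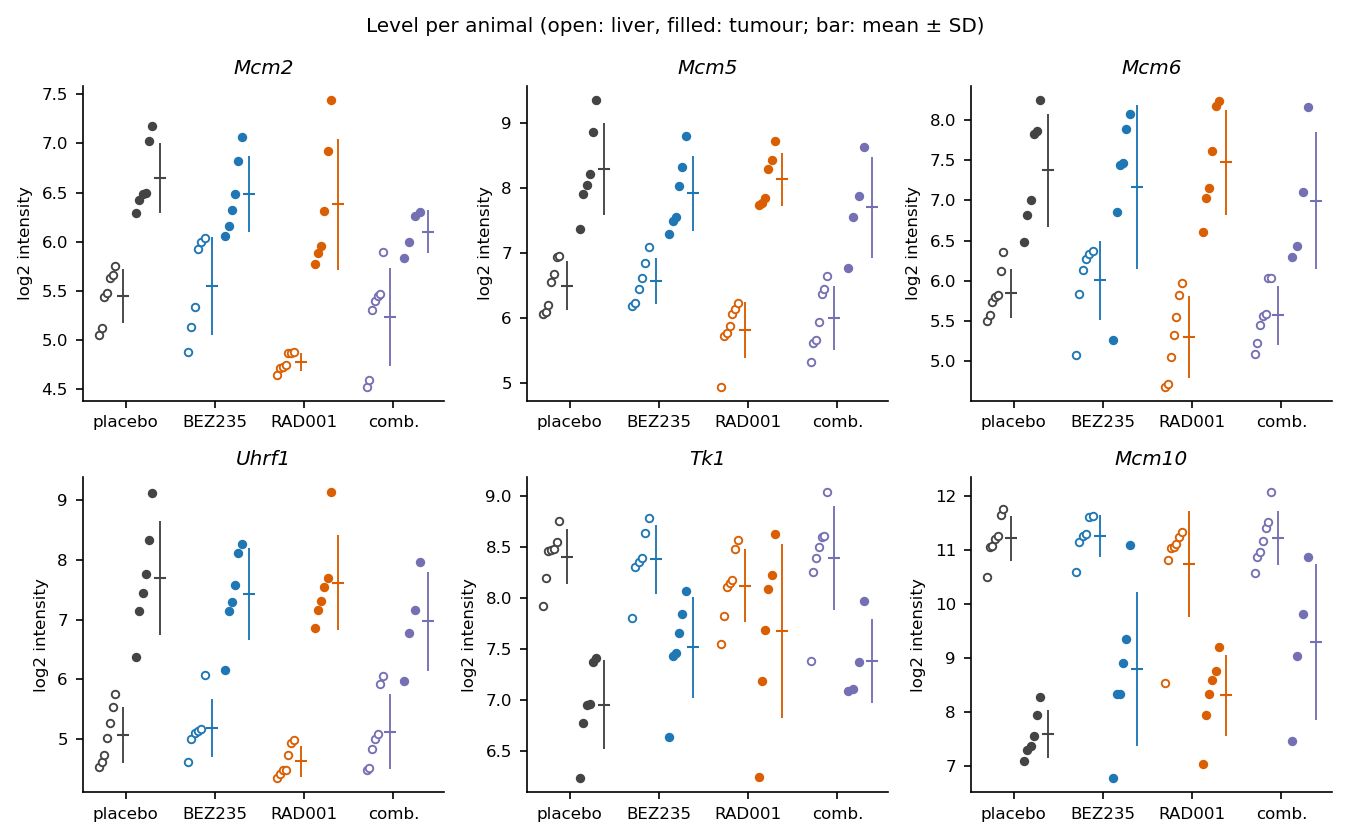
Log2 level of 6 genes in each animal, by tissue and treatment, with open points for livers, filled points for the mean of an animal's tumours, and bars for the group mean and SD. The Mcm5 tumour means of the animals lie above all livers of their treatment. Mcm10 runs the other way, with 1 BEZ235 tumour at 11.10 and 1 combination tumour at 10.87 at liver level.

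Among the factors that turn the loaded ring into a helicase, Mcm10 ran opposite to the rest. Placebo livers had Mcm10 at 10.50, 11.20 and 11.77 (lowest, median, highest) and placebo tumours at 7.10, 7.47 and 8.28. No values overlapped, and the difference was -3.61 ± 0.43 (SE), 12.2-fold lower in tumour (adjusted p = 4.35e-09). The second Mcm10 probe fell from 8.55 to 5.13, and the Mcm10 gene overlaps no other protein-coding gene in the RefSeq table. The sequences of the probes were not analysed here, so whether both read Mcm10 alone was not tested.

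Under BEZ235 the Mcm10 tumours were widely spread, at 6.78, 8.63 and 11.10, and overlapped livers at 10.59 to 11.64, with a difference of -2.42 (adjusted p = 4.37e-05). RAD001 livers lay at 8.55, 11.06 and 11.34, with animal 732 lowest and the next at 10.82, and RAD001 tumours at 7.04, 8.47 and 9.21 (difference -2.40, adjusted p = 2.05e-05), so that animal 732 alone brought an overlap. Combination tumours were at 7.46, 9.05, 9.83 and 10.87, where livers were at 10.58 to 12.08 (difference -1.96, adjusted p = 0.00258). That last call ended without animal 726 (adjusted p = 0.0596). The highest BEZ235 value belonged to 693 and the highest combination value to 773, which both had a low tumour score, and without the tumours of the 4 low-score animals the differences were -2.89 under BEZ235, -2.66 under RAD001 and -2.47 under the combination.

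Cdc45, a core part of the active helicase, was 4.95 ± 0.35 in placebo livers and 5.26 ± 0.55 in placebo tumours. Its differences of 0.29, 0.01, 0.41 and 0.42 in the order above passed under no treatment, with adjusted p-values from 0.192 to 0.984.

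The clamp and its loaders gave weak signals or small steps. Pcna, the sliding clamp, had 1 probe on the array, which was above background on 2 of 7 placebo liver and 3 of 10 placebo tumour arrays. At 4.83 ± 0.41 and 4.72 ± 0.30 it differed by -0.11 ± 0.14 (SE; adjusted p = 0.61), and by 0.12, 0.02 and -0.01 under the 3 drug treatments. Rfc2, a subunit of the clamp loader, was bright and tight, at 9.68, 9.98 and 10.14 in placebo livers against 10.22, 10.44 and 10.71 in placebo tumours. The groups were apart by 0.52 ± 0.12 (SE; adjusted p = 0.00043), and by 0.45, 0.53 and 0.37 under BEZ235, RAD001 and the combination (adjusted p = 0.00434, 0.000448 and 0.0428). The combination call for Rfc2 ended without any of 742, 764, 773 or 775 (adjusted p 0.0632 to 0.5).

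Rfc4 passed under RAD001 alone among the 4 fits, by 0.57 (adjusted p = 0.0304), a call that ended without 730, 732 or 760 (adjusted p 0.064 to 0.185). Its other differences were 0.26, 0.22 and 0.58 in placebo, BEZ235 and combination animals, and Rfc5 passed nowhere, at 0.07, 0.27, 0.32 and -0.11. The single-strand binding proteins Rpa1 and Rpa2 differed by 0.59 (adjusted p = 0.00292) and 0.57 (adjusted p = 0.0354) under RAD001. In placebo animals their differences were 0.22 (adjusted p = 0.304) and 0.46 (adjusted p = 0.0848). The RAD001 call for Rpa2 ended without any of 700, 727, 745, 763 or 772 (adjusted p 0.0583 to 0.113).

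Among the polymerases, the catalytic subunit of polymerase delta, Pold1, moved and its partner Pold2 did not pass. Pold1 ran from 6.35 to 7.00 in placebo livers and from 6.48 to 8.11 in placebo tumours, overlapping, with a difference of 0.65 ± 0.19 (SE; adjusted p = 0.00604). It differed by 0.59 under BEZ235 (adjusted p = 0.0221, and 0.181 without animal 712), by 0.92 under RAD001 (adjusted p = 0.000211) and by 0.35 under the combination (adjusted p = 0.29). Pold2 differed by -0.11, 0.00, 0.17 and 0.15. Pole, the catalytic subunit of polymerase epsilon, was dim, with no placebo liver array of 7 above background, and passed under RAD001 by 0.34 (adjusted p = 0.0456), a call that ended without any of 10 animals (adjusted p 0.0508 to 0.17). Of these animals, 693, 710, 748 and 759 had other treatments, and leaving them out changed the shared fit and not the difference. Pola2 and the primase subunit Prim2 passed nowhere, the nearest being Prim2 under BEZ235, at 0.49 (adjusted p = 0.0603).

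The enzymes that finish the lagging strand rose under all 4 treatments. Fen1, the flap nuclease, ran from 6.17 over 6.72 to 7.00 in placebo livers and from 7.02 over 7.62 to 8.13 in placebo tumours. The gap between the groups was narrow, and the difference was 0.90 ± 0.20 (SE), 1.87-fold (adjusted p = 0.000238). It was 0.74, 0.82 and 0.83 under BEZ235, RAD001 and the combination (adjusted p = 0.00459, 0.00096 and 0.00491), and without animal 755 the BEZ235 call ended (adjusted p = 0.051).

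Lig1, the ligase that seals the pieces, ran from 4.65 over 5.47 to 6.24 in placebo livers and from 6.35 over 6.99 to 7.37 in placebo tumours. The difference was 1.41 ± 0.21 (SE), 2.67-fold (adjusted p = 5.81e-07), and 1.21, 1.67 and 1.33 under BEZ235, RAD001 and the combination (adjusted p = 3.77e-05, 3.71e-08 and 6.74e-05). As animal means, Lig1 and Mcm5 were the genes of the 36 whose tumours and livers were apart under every treatment. The share of all tested genes that did so is not given here. Single tumours of combination animal 726 fell among the combination livers, with Lig1 at 5.27 and Mcm5 at 5.40 and 6.07. Combination tumours had Lig1 at 6.23, 6.43, 6.94 and 7.37, above livers at 4.93 to 5.89. The other 3 Lig1 probes lay near the background limit and differed by 0.18 to 0.21 in placebo animals.

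The enzymes that make deoxynucleotides went in both directions. Rrm2, the inducible subunit of ribonucleotide reductase, ran from 5.49 over 5.77 to 6.31 in placebo livers and from 6.18 over 7.60 to 8.33 in placebo tumours. Only the lowest tumour reached the livers, and the difference was 1.53 ± 0.29 (SE), 2.88-fold (adjusted p = 3.84e-05). It was 1.34 (adjusted p = 0.000636) under BEZ235, 1.32 (adjusted p = 0.000416) under RAD001 and 0.67 (adjusted p = 0.156) under the combination, where the tumours were at 5.90, 6.46, 7.16 and 7.28. Rrm1, the other subunit, passed under RAD001, at 1.05 (adjusted p = 0.000118), and its differences in placebo, BEZ235 and combination animals were 0.48, 0.46 and 0.15 (adjusted p = 0.0741, 0.113 and 0.74).

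Tyms, thymidylate synthase, was tight in placebo livers, at 6.99, 7.27 and 7.44, and lay at 7.70, 8.27 and 8.67 in placebo tumours. The groups were apart by 0.94 ± 0.14 (SE), 1.92-fold (adjusted p = 4.26e-07), and Tyms was higher by 0.65, 0.98 and 0.64 under BEZ235, RAD001 and the combination (adjusted p = 0.000489, 3.73e-07 and 0.00256). These values come from the brightest of 4 Tyms probes above background. The other 3 differed by 0.06 to 0.11 in placebo animals, so the placebo call rests on that probe. With the mean over probes the BEZ235 call ended (adjusted p = 0.0553). A second Tyms probe averaged 5.05, 5.14 and 5.03 in BEZ235, RAD001 and combination livers and 5.54, 5.83 and 5.53 in the tumours. The remaining probes stayed at 4.64 to 4.85 in those groups, below the background limit.

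Tk1, the salvage enzyme thymidine kinase, was lower in tumour. It ran from 7.93 over 8.47 to 8.75 in placebo livers and from 6.24 over 6.96 to 7.42 in placebo tumours, without overlap, by -1.46 ± 0.25 (SE), 2.75-fold (adjusted p = 7.26e-06). It was lower by -0.85 under BEZ235 (adjusted p = 0.0114) and -1.04 under the combination (adjusted p = 0.00635), and differed by -0.43 under RAD001 (adjusted p = 0.208), where tumours ran from 6.25 to 8.63. The tumours of the low-score animals 730 and 732 held the highest Tk1 values of the RAD001 tumours, 8.63 and 8.23. Without them the RAD001 difference of Tk1 was -0.81 (adjusted p = 0.0126), which their choice by likeness to liver favours. The BEZ235 call ended without animal 728 (adjusted p = 0.0523) and the combination call without 726 (adjusted p = 0.0699). The other Tk1 probes went down by less, by -0.54 and -0.07. By RefSeq coordinates 13 of the 43 genes overlap another protein-coding gene. Tk1 shares 585 bases with Afmid, Lig1 shares 1547 with Zswim9 and Fen1 shares 192 with Tmem258, and whether a probe lies in such a stretch was not tested.

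Dut, which removes dUTP, was 5.79 ± 0.32 in placebo livers and 5.32 ± 0.05 in placebo tumours, a difference of -0.47 (adjusted p = 0.0341), and -0.51 under BEZ235 (adjusted p = 0.0335). The placebo call ended without any of 710, 724, 747, 769 or 771 (adjusted p 0.0501 to 0.119) and the BEZ235 call without any of 693, 697, 712, 725 or 728 (adjusted p 0.0507 to 0.173). Under RAD001 and the combination Dut differed by -0.20 (adjusted p = 0.441) and -0.51 (adjusted p = 0.0678).

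The genes that restore chromatin and DNA methylation behind the fork included the member with the largest rise in placebo animals. Uhrf1 binds hemimethylated DNA and brings in the methyltransferase Dnmt1. Uhrf1 ran from 4.54 over 5.02 to 5.75 in placebo livers, with 4 of 7 arrays above background, and from 6.38 over 7.61 to 9.11 in placebo tumours. The groups were apart by 2.61 ± 0.34 (SE), 6.10-fold (adjusted p = 2.38e-08). The differences were 2.23 under BEZ235 (adjusted p = 3.15e-06), 2.98 under RAD001 (adjusted p = 2.84e-09), where 2 of 7 liver arrays were above background, and 1.86 under the combination (adjusted p = 0.000295). Tumours and livers were also apart under BEZ235 and RAD001, while the 4 combination tumours, at 5.98, 6.77, 7.17 and 7.96, met the livers, at 4.49 to 6.06.

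Dnmt1 moved in smaller steps, from 5.93 ± 0.29 in placebo livers to 6.56 ± 0.31 in placebo tumours, by 0.62 ± 0.17 (SE; adjusted p = 0.00268). It differed by 0.47, 0.68 and 0.16 under BEZ235, RAD001 and the combination (adjusted p = 0.0385, 0.00142 and 0.636), and the BEZ235 call ended without any of 693, 712, 755 or 759 (adjusted p 0.0566 to 0.158). Chaf1b, a subunit of the factor that deposits histones on new DNA, differed by 0.69 in placebo animals (adjusted p = 0.00497), 0.44 under BEZ235 (adjusted p = 0.113), 1.12 under RAD001 (adjusted p = 1.7e-05) and 0.62 under the combination (adjusted p = 0.0412). That combination call ended without any of 713, 742, 764, 773 or 775 (adjusted p 0.0636 to 0.328). Its partner Chaf1a passed nowhere, with 0.45 in placebo animals (adjusted p = 0.0889).

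Of the genes that time entry into S phase, Ccne1 passed in placebo animals and Ccne2 and E2f1 under no treatment. Ccne1, cyclin E1, was 4.98 ± 0.48 in placebo livers and 5.76 ± 0.41 in placebo tumours, overlapping, with a difference of 0.78 ± 0.26 (SE; adjusted p = 0.015, and 0.054 without animal 696). Its differences under BEZ235, RAD001 and the combination were 0.42, 0.61 and 0.39 (adjusted p = 0.268, 0.0681 and 0.4), and the RAD001 value passed without animal 755 or 772 (adjusted p = 0.0493 and 0.043). Ccne2, cyclin E2, stayed near background and differed by -0.14, 0.03, 0.14 and 0.26 (adjusted p = 0.584, 0.912, 0.567 and 0.396). E2f1, the transcription factor, was 7.06 ± 0.28 in placebo livers and 7.24 ± 0.68 in placebo tumours, and differed by 0.16, 0.38, 0.50 and 0.50 (adjusted p = 0.607, 0.208, 0.069 and 0.142). Its RAD001 difference passed when any of the animals 700, 727, 769 or 773 was left out (adjusted p 0.045 to 0.0494). Animals 755, 769 and 773 had other treatments, so leaving them out changed the shared fit and not these RAD001 differences.

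In a piece of tissue, fewer cells of a type and less RNA per cell cannot be told apart. The marker counts stand beside 18.8% of all tested genes higher and 16% lower in placebo tumours. Between placebo tumours and livers, 6 of 8 tested macrophage markers were lower, among them Cd163 by -3.26 and Clec4f by -2.07, and their summed intensity ran from 518 to 2873 in tumours and from 2133 to 5858 in livers. Of 9 tested stellate cell and fibroblast markers 4 were higher and 1 was lower, with sums of 4780 to 6963 and 4722 to 6019, and of 9 hepatocyte markers 2 were higher and 3 lower. Of 8 endothelial markers 2 were higher and 1 was lower, with sums of 1950 to 4937 in tumours and 4252 to 5627 in livers. Of 2 tested cholangiocyte markers 1 was higher, with sums of 30.2 to 97.2 and 14.9 to 61.4, and of 3 tested erythroid markers 1 was lower. None of 6 tested T and NK cell markers, 3 B and plasma cell markers or 5 neutrophil markers passed limma's adjusted test (1, 1 and 0 at an unadjusted p under 0.05), and Cd4, Cd8a, Cd79a, Krt19 and Epcam were among the markers not above background. Of 7 tested immediate early genes, which respond to handling among other stimuli, 6 were higher in tumours, with sums of 10840 to 17630 in tumours and 831 to 5325 in livers. The part of these markers in the differences of the 36 genes was not tested.

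Other genes of the same processes were tested as lists beside the 36. Their counts stand beside 18.8% of all tested genes higher and 16% lower in placebo tumours. Of 39 other replication factors 27 were tested, 9 were higher and 3 lower in placebo tumours, and the median difference was -0.02. The 3 with the lowest p were Pold4, the smallest subunit of polymerase delta, higher by 3.13 (adjusted p = 2.05e-09), Pole4, a small subunit of polymerase epsilon, lower by -1.21 (adjusted p = 3.49e-09), and Rnaseh2c, a subunit of ribonuclease H2, lower by -1.05 (adjusted p = 2.36e-07). Of 20 further genes of nucleotide supply 18 were tested, with 4 higher, near the share of all tested genes, and 5 lower. Nme1, a nucleoside diphosphate kinase, was higher by 0.82 (adjusted p = 2.39e-08), and the one-carbon enzymes Shmt2 and Mthfd1 were lower by -1.01 (adjusted p = 2.95e-06) and -0.86 (adjusted p = 5.52e-06).

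Upstream of S phase, 4 of 17 tested regulators of the G1 to S transition were higher and none was lower. Of all tested genes 18.8% were higher and 16% lower there, so the count of higher regulators lies near that share. Ccnd1, cyclin D1, led with 2.56 (adjusted p = 9.81e-10), followed by E2f2 with 0.92 (adjusted p = 0.000172) and Mybl2 with 0.80 (adjusted p = 0.00029). Of 11 tested CDK inhibitors and pocket proteins 4 were higher, with Cdkn2c at 1.15 (adjusted p = 1.97e-09), Cdkn2b at 4.16 (adjusted p = 8.07e-09) and Cdkn2a at 1.12 (adjusted p = 0.000555). After S phase, 11 of 11 tested mitosis genes were higher, with a median of 2.04, led by Cenpa at 2.44 (adjusted p = 3.08e-13), Birc5 at 2.52 (adjusted p = 3.6e-11) and Plk1 at 2.64 (adjusted p = 5.83e-10). No gene of these lists passed limma's adjusted test in a comparison of a treatment with placebo. Of the 11 mitosis genes, 4 were lower in combination tumours and 2 in RAD001 tumours at an unadjusted p under 0.05, where 7.99% and 7.05% of all tested genes passed that limit in either direction.

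The question of the treatment comparisons was whether the compounds changed the level of these genes in tumour or in liver. The deposited values of each treatment had been normalized on their own, so the normalization and the treatment cannot be told apart in these comparisons beyond the joint normalization applied here. None of the 36 genes passed in any of the 3 comparisons of treated with placebo tumours, where 0%, 0% and 0% of all tested genes passed for BEZ235, RAD001 and the combination. Before adjustment, at p under 0.05, 1 of the 36 passed under BEZ235 and 1 under RAD001, both higher, and 3 under the combination, 1 higher and 2 lower. Of all tested genes 5.32%, 7.05% and 7.99% passed at that limit. The median difference of the 36 from placebo tumours was -0.05, 0.06 and -0.18. The 3 comparisons share the placebo samples, so their values are not independent of each other.

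In tumours, Mcm10 and Tk1 lay on the higher side under treatment. Against placebo tumours Mcm10 differed by 1.21 under BEZ235 (95% interval 0.05 to 2.37, adjusted p = 0.923) and by 1.71 ± 0.63 (SE) under the combination (adjusted p = 0.496). Without the tumours of the 4 low-score animals these differences were 0.75 (adjusted p = 0.887) and 1.18 (adjusted p = 0.662). The mean Mcm10 level was 7.60 in placebo, 8.81 in BEZ235, 8.32 in RAD001 and 9.30 in combination tumours. Placebo tumours reached at most 8.28, and the treated groups ran from below that value to 11.10, 9.21 and 10.87. Tk1 differed by 0.56 under BEZ235 (adjusted p = 0.934) and by 0.72 under RAD001 (0.06 to 1.39, adjusted p = 0.69), which was 0.35 without the tumours of those animals (adjusted p = 0.962).

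Cdc6 differed by -0.20, -0.33 and -0.64 under BEZ235, RAD001 and the combination (adjusted p = 0.735 for RAD001; interval -1.10 to -0.17 and adjusted p = 0.487 for the combination). The 4 combination tumours had Cdc6 at 4.71, 4.75, 4.85 and 4.95, at the background limit, while placebo tumours ran from 4.78 to 5.94. Under BEZ235 Ccne1 was the third named by lowest p, at -0.52 (adjusted p = 0.934). Under RAD001 it was Orc6, at 0.20 (adjusted p = 0.769), and under the combination Rfc5, at -0.39 (adjusted p = 0.618).

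The other genes given in every comparison did not pass either. Mcm2 differed by -0.17, -0.27 and -0.55 under BEZ235, RAD001 and the combination, with an interval of -1.13 to 0.03 for the last. Mcm6 differed by -0.21, 0.10 and -0.38, Uhrf1 by -0.27, -0.08 and -0.73, Rrm2 by -0.20, 0.04 and -0.74, and Tyms by -0.01, -0.06 and -0.20. Dnmt1 differed by 0.10, 0.15 and -0.18, Cdt1 by -0.20, 0.21 and 0.14, and E2f1 by 0.10, 0.21 and -0.00. Pcna differed by -0.15, -0.19 and -0.13 and Ccne2 by -0.12, 0.18 and 0.23, both near background, and Ccne1 by -0.19 and -0.39 under RAD001 and the combination. Without the tumours of the 4 low-score animals the combination difference was -1.06 for Uhrf1, -0.76 for Mcm6 and -0.89 for Rrm2 (adjusted p = 0.648, 0.743 and 0.803).

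**Figure D3:**
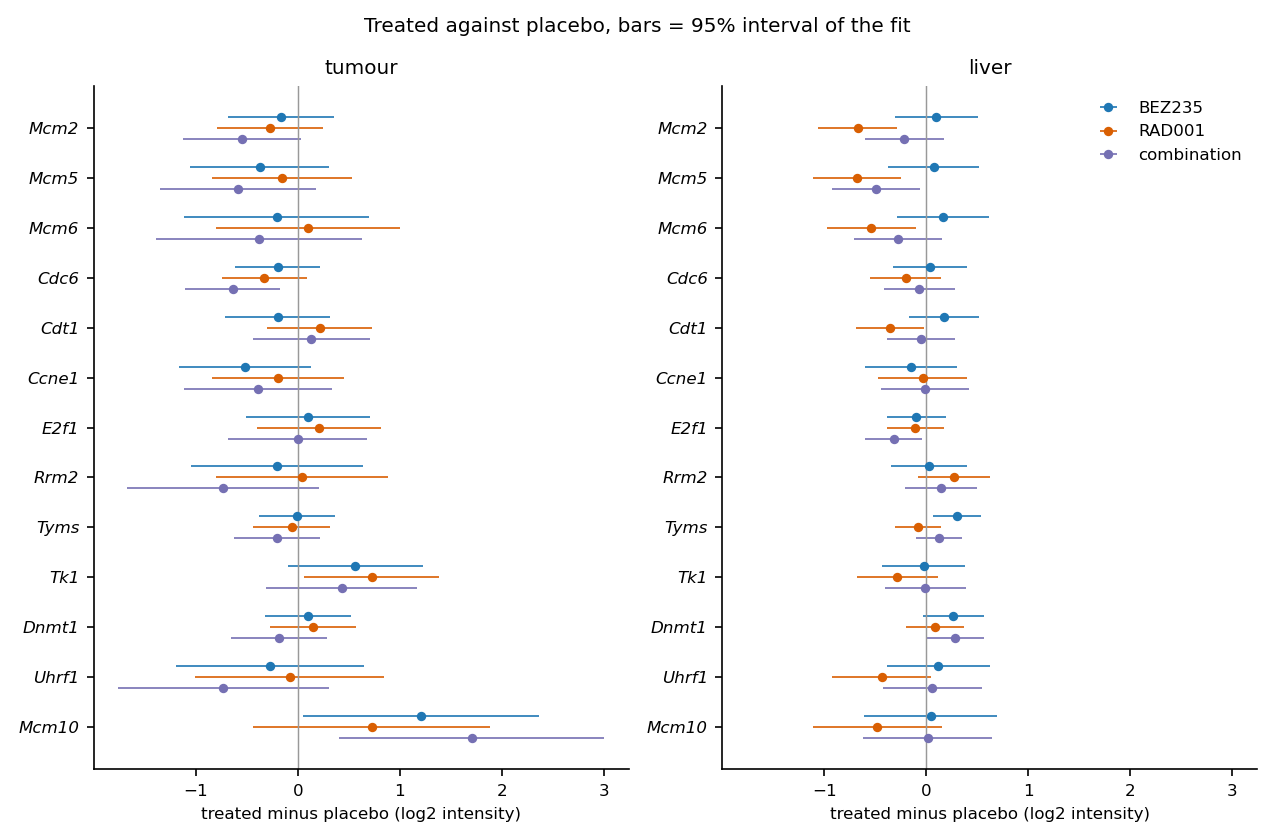
Difference in log2 level between treated and placebo animals, with 95% intervals, for 13 of the genes in tumour and in liver. None of the 36 genes passed the limit of 0.05 after adjustment in these comparisons, and Mcm10 in combination tumours has the widest displayed difference, 1.71.

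Between the treatments, no gene of the 36 passed in tumours. The share of all tested genes that passed was 0% for the combination against BEZ235, 0.0191% for the combination against RAD001 and 0.00953% for BEZ235 against RAD001. The genes with the lowest p were Rfc5 (-0.45), Dut (-0.37) and Cdc6 (-0.44) in the first comparison and Rrm1 (-0.80), Dut (-0.42) and Prim2 (-0.37) in the second. They were Rrm1 (-0.47), Cdt1 (-0.41) and Ccne2 (-0.30) in the third. Adjusted p-values were 0.899 or more in all of these, and 1, 2 and 0 genes passed at an unadjusted p under 0.05, all lower, where 2.86%, 4.58% and 3.83% of all tested genes passed.

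In liver, none of the 36 genes passed in any treatment against placebo either, beside shares of all tested genes of 0.0286% under BEZ235, 0% under RAD001 and 0.276% under the combination. Before adjustment, at p under 0.05, 1 of the 36 was higher and 2 were lower in BEZ235 livers, 8 were lower in RAD001 livers and 3 in combination livers. At that limit 5.15%, 6.42% and 8.44% of all tested genes passed in either direction, and 2.83% were lower under RAD001. The 8 included Mcm2, which differed by -0.67 (interval -1.06 to -0.28, adjusted p = 0.439). Placebo livers had Mcm2 at 5.05 to 5.76 and RAD001 livers at 4.65 to 4.88, so the groups did not overlap. How many of all tested genes did not overlap there is not given here. The placebo mean of these samples was at least 1.44-fold brighter, a bound without a standard error, and the difference did not pass.

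Mcm5 differed by -0.68 in RAD001 livers (interval -1.11 to -0.25, adjusted p = 0.456), where animal 732, at 4.94, was lowest and the next animal lay at 5.71. Prim2 differed by -0.51 (adjusted p = 0.642), Mcm6 by -0.54 (adjusted p = 0.698), Cdt1 by -0.35, Pcna by -0.31 and Uhrf1 by -0.44. The mean log2 level of Mcm2 to Mcm7 was 5.46 ± 0.19 (SD, n = 7) in RAD001 livers and 5.82 ± 0.18 (SD, n = 7) in placebo livers, and 5.89 ± 0.23 and 5.67 ± 0.27 in BEZ235 and combination livers. In BEZ235 livers the lowest p belonged to Prim2 (-0.56, adjusted p = 0.855), Tyms (0.30, adjusted p = 0.911) and Pcna (-0.37, adjusted p = 0.916). In combination livers it belonged to Prim2 (-0.48, adjusted p = 0.439), E2f1 (-0.32, adjusted p = 0.499) and Mcm5 (-0.50, adjusted p = 0.499). All Prim2 values come from the brighter of its probes. The second, below the background limit on average, did not fall alike. It averaged 4.57, 4.71, 4.51 and 4.55 in placebo, BEZ235, RAD001 and combination livers.

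Between treatments in liver, none of the 36 genes passed, beside 0% of all genes for the combination against BEZ235, 0.877% for the combination against RAD001 and 0.152% for BEZ235 against RAD001. In the last of these, 11 of the 36 passed before adjustment, all higher in BEZ235 livers, where 8.59% of all tested genes passed in either direction. Mcm2 differed there by 0.77 (interval 0.37 to 1.17, adjusted p = 0.11), Mcm5 by 0.75 (adjusted p = 0.205) and Tyms by 0.38 (adjusted p = 0.219). The Mcm2 means of these samples were at least 1.54-fold apart, a bound without a standard error. Combination livers differed from RAD001 livers, with 3 of the 36 higher before adjustment beside 9.79% of all genes past that limit, by 0.37 in Mcm7 (adjusted p = 0.415), 0.45 in Mcm2 (adjusted p = 0.418) and 0.50 in Uhrf1 (adjusted p = 0.497). Combination livers, with 1 gene lower before adjustment beside 3.9% of all genes past that limit, differed from BEZ235 livers by -0.57 in Mcm5 (adjusted p = 0.999), -0.44 in Mcm6 and -0.38 in Dut.

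Whether a treatment acted differently in tumour and in liver was tested as an interaction. None of the 36 genes passed, and 0%, 0.0191% and 0.00953% of all genes did for BEZ235, RAD001 and the combination. At an unadjusted p under 0.05, 1, 4 and 1 of the 36 passed, all higher, beside 5.35%, 7.5% and 8.44% of all tested genes. The RAD001 difference was more positive in tumour than in liver for Tk1 by 1.03 (interval 0.32 to 1.75, adjusted p = 0.513), and by 0.57 for each of Prim2 and Cdt1. For BEZ235 the lowest p belonged to Prim2 (0.60, adjusted p = 0.891), Mcm10 (1.19) and Tk1 (0.61). For the combination it belonged to Mcm10 (1.66, interval 0.36 to 2.95, adjusted p = 0.497), Cdc6 (-0.54) and Rrm2 (-0.86). When the tumours of the 4 low-score animals were left out, the RAD001 value was 0.65 for Tk1 (adjusted p = 0.982) and the combination value 1.14 for Mcm10 (adjusted p = 0.826). The differing counts of genes past the limit under the 4 treatments therefore do not show that the tumour and liver difference itself changed with treatment.

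Across the 22 animals with a tumour, some of the genes varied together. After the mean of its treatment was taken from each value, Mcm6 was correlated with 10 other genes, with p-values from 100000 permutations adjusted over these 10 relations. The permutations ran across all 22 animals and did not allow for the treatment means taken off, so the p-values are somewhat too small. The share of all tested genes that followed Mcm6 is not given here. Fen1 followed Mcm6 most closely, with Pearson's r of 0.933 and Spearman's rho of 0.95 (adjusted permutation p = 5e-05 for each), and r of 0.92 without the 2 animals farthest from the median of Mcm6. The raw p behind it, 1e-05, is the smallest that these permutations can give. Uhrf1 had r of 0.893, rho of 0.929 and, without those animals, r of 0.884 (adjusted permutation p = 5e-05).

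Tyms, Mcm5, Lig1 and Mcm2 also followed Mcm6. Their r was 0.76, 0.746, 0.735 and 0.609, their rho 0.689, 0.775, 0.768 and 0.657, and their adjusted permutation p for r 0.000167, 0.000175, 0.00024 and 0.00435. Without the 2 farthest animals r was 0.68, 0.72, 0.754 and 0.645. Rrm2 was at the limit, with r of 0.449 (adjusted permutation p = 0.0503) and rho of 0.544 (adjusted permutation p = 0.0145). The genes that were lower in tumour showed no such relation past the limit, with r of 0.325 for Dut, 0.293 for Tk1 and -0.204 for Mcm10 (adjusted permutation p = 0.173, 0.206 and 0.362) and rho of 0.252, 0.388 and -0.189. Without the 2 farthest animals r was 0.105 for Dut, 0.475 for Tk1 and -0.05 for Mcm10, and 0.474 for Rrm2. All these values come from the same arrays, so they share hybridisation and the makeup of the tissue, whose part was not tested.

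**Figure D4:**
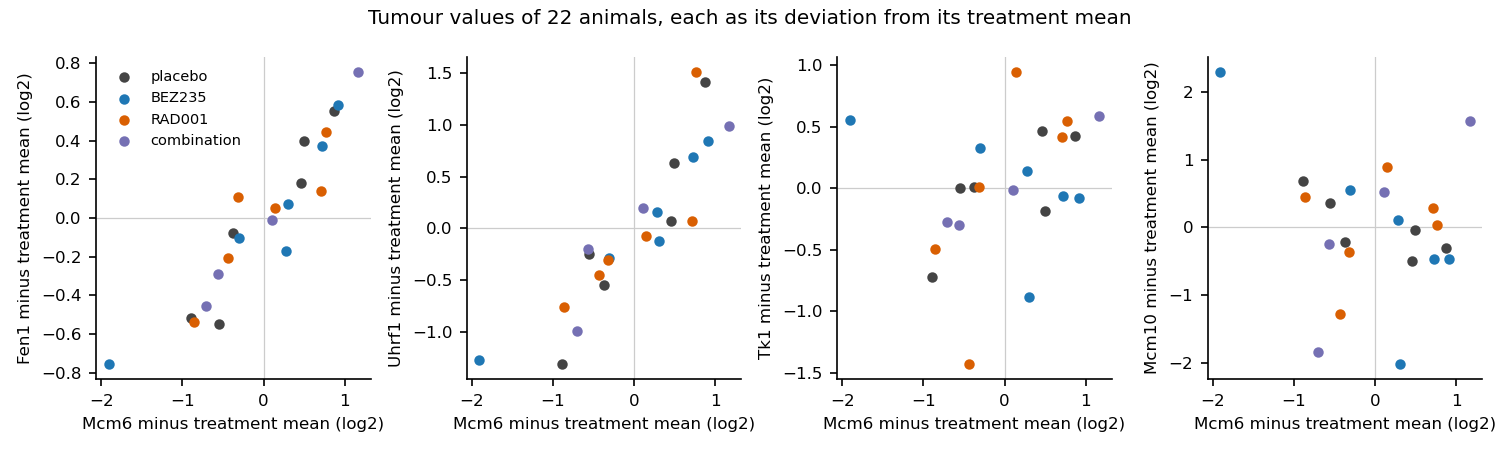
Level of Fen1, Uhrf1, Tk1 and Mcm10 against Mcm6 in the 22 tumour animals, coloured by treatment, each as the deviation from the mean of its treatment on the log2 scale. Fen1 and Uhrf1 fall along a line with r of 0.933 and 0.893, and Mcm10 does not, with r of -0.204.

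Several animals gave more than 1 tumour, 27 tumours from 12 animals. The SD between single tumours of the same animal is set here against that between animal means of a treatment. An animal mean averages its tumours and still holds part of their spread, so these SDs differ in kind. The SD between single tumours was 0.79 against 0.61 for Mcm5, 0.83 against 0.82 for Mcm6 and 0.80 against 0.84 for Uhrf1. It was 0.87 against 1.06 for Mcm10, 0.51 against 0.32 for Tyms and 0.41 against 0.45 for Fen1. Combination animal 726 had the widest ranges for Mcm5, Uhrf1, Rrm2 and Chaf1b. Its 3 tumours had Mcm5 at 5.40, 6.07 and 8.80, Uhrf1 at 4.68, 5.32 and 7.95, and Rrm2 at 4.99, 5.29 and 7.40. The same tumour was highest in all 3 genes, and the lowest lay within or below the range of combination livers.

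In RAD001 animal 763 the 2 tumours had Mcm6 at 6.52 and 9.84, the widest range of that gene, 3.32. Placebo animal 747 had the widest ranges of Mcm10 and Tk1, with Mcm10 at 5.92, 7.05 and 8.34 and Tk1 at 6.52, 7.13 and 8.61 in its 3 tumours. In that animal the order of the tumours was the same for both genes. Tumours of an animal share that animal, and n in the tests above counts animals for this reason.

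**Figure D5:**
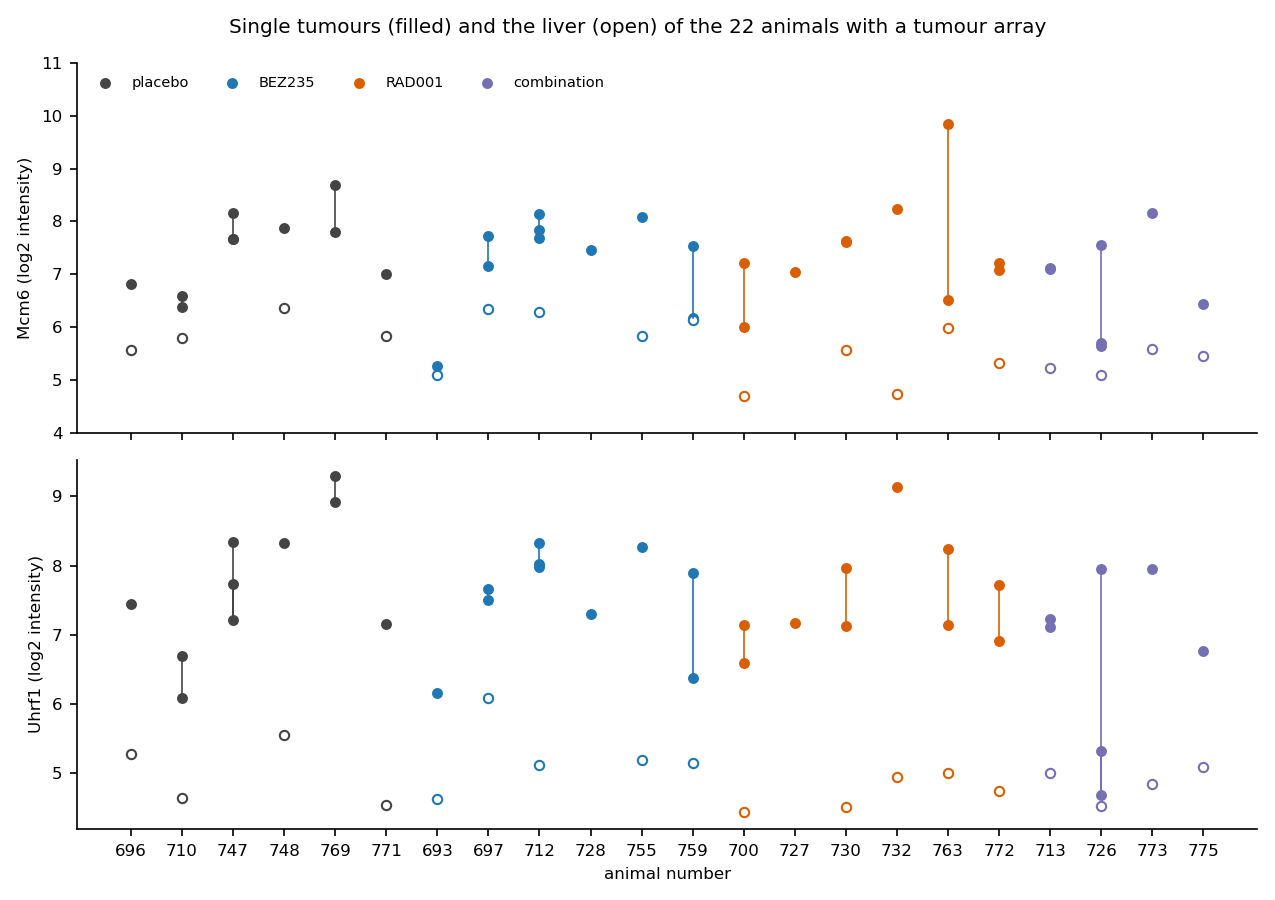
Log2 level of Mcm6 and Uhrf1 in each of the 37 tumours (filled points, joined where an animal gave several) and in the liver of the same animal where it was measured (open points), with animals along the horizontal axis and treatments in colour. The 2 tumours of RAD001 animal 763 span 3.32 for Mcm6, and the 3 tumours of combination animal 726 span 3.27 for Uhrf1.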

How the data were processed

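The deposited linear probe intensities reach below 0, so background had been taken off them. The submitters' processing notes name BeadStudio, whose version is not given in the sources used here. For arrays of the same treatment the brightest intensities were identical rank by rank, from the values, so each treatment had been quantile-normalized on its own. A further 128 value columns match no sample label and were not used.

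In R 4.3.3 with limma 3.58.1 the 64 arrays were quantile-normalized together, corrected with normexp (noise SD 7.02, from the values below 0), offset by 16 and log2-transformed. A probe was kept if it exceeded 2 noise SD, 14.0 intensity units, on at least 6 arrays, which left 14348 of 25697 probes. Of all probes 23978 carried 1 gene symbol, none several and 1719 none. The brightest kept probe stood for a gene, and 9 of the 36 tested genes had several. Precision is limited by the number of arrays. Pairwise array correlations ran from 0.895 to 0.989, and no 2 arrays were identical.

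Tumour against liver and interactions were fitted over 8 groups with a random block for the animal (correlation 0.0968), treatments over the 4 groups of a tissue, 19 comparisons in all. The number in a sample title names the mouse, which pairs liver and tumour; over 18 such pairs the correlation of deviations from the group means ran from -0.0806 to 0.295, with a median of 0.0919. Treatments are of separate animals per the labels, liver and tumour groups of a treatment share animals, and tumours of an animal were averaged. The fit was tested on simulated data. Up to 10 genes past the limit are given in full per comparison, otherwise the 3 with the lowest p, and Mcm2, Mcm6, Pcna, Cdc6, Cdt1, Ccne1, Ccne2, E2f1, Rrm2, Tyms, Uhrf1 and Dnmt1 in the comparisons of tumour with liver and of treatment with placebo. The genes and lists were chosen with earlier results of these data known. Alternatives were the background correction, offset, filter, probe choice, tumour choice, array weights, samples in the fit, a replicate block and leaving out each animal.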

Additional observations from a re-analysis of the deposited data

Results flagged for a closer look

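Of 288 sets of values, 1 for each of the 36 genes in each of the 8 groups, 11 (3.82%) held an animal far from the rest of its group by Dixon's test at the 95% level. Chance alone singles out about 1 in 20 such groups.

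RAD001 animal 732 accounted for 5 of the 11. Its liver was lowest of the RAD001 livers in Mcm5 (4.94, the next at 5.71), Mcm10 (8.55, the next at 10.82) and Rfc5 (6.28, the next at 6.69). Its tumour was highest of the RAD001 tumours in Uhrf1 (9.13, the next at 7.69) and Chaf1b (7.13, the next at 6.76). The tumour of that animal also had a tumour score of 0.447, the lowest of its group.

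The other 6 values were spread over 6 animals. They were Rfc2 in the tumour of BEZ235 animal 755 (10.96, highest), Pole in the livers of BEZ235 animal 712 (5.18, highest) and RAD001 animal 772 (4.96, highest), Tyms in the liver of RAD001 animal 763 (7.56, highest), Ccne2 in the tumour of placebo animal 769 (5.38, highest) and Chaf1a in the liver of combination animal 726 (4.45, lowest). The values of Pole, Ccne2 and Chaf1a lie near the background limit of 4.92.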

How the results depend on the processing

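No difference that passed the limit changed direction under any alternative. With the replicate block, the paired fit with the animal as a fixed block, the count for placebo tumour against liver was 9, 7 higher and 2 lower, in place of 20. It rests on 4 placebo animals with both tissues, fewer than the 6 and 7 of the other fit. Ccne1, Cdc6, Cdt1, Chaf1b, Dnmt1, Dut, Fen1, Mcm4, Mcm7, Pold1 and Rfc2 lost the call there (adjusted p 0.0511 to 0.482). Except for Dut, their differences were also smaller there. Cdc6 was at 0.27 in place of 0.58, Cdt1 at 0.29 in place of 0.53 and Ccne1 at 0.71 in place of 0.78. Placebo tumours of animals 747 and 769, which have no liver array, are not in that fit. Their mean levels of Mcm2 to Mcm7 were 6.97 and 7.60, where placebo tumours ran from 6.28 to 7.60. The block gave 13, 18 and 12 calls under BEZ235, RAD001 and the combination. Dnmt1, Dut and Pold1 were lost under BEZ235 (adjusted p 0.1 to 0.139), and Dnmt1, Pole, Rfc4 and Rpa2 under RAD001 (0.0584 to 0.112). Under the combination Chaf1b and Rfc2 were lost (both 0.104) and Mcm4 and Rpa2 gained (0.0418 and 0.048). Leaving out each animal in turn gave 17 to 21 calls in placebo animals, 12 to 17 under BEZ235, 19 to 23 under RAD001 and 10 to 14 under the combination. The calls kept without each animal numbered 16 of 20, 9 of 16, 18 of 22 and 7 of 12. Without the tumours of animals 693, 730, 732 and 773, a choice made after seeing the data, the counts were 22, 17, 21 and 10. With the lowest-numbered tumour of each animal they were 18, 12, 22 and 8, and with no filter 17, 13, 18 and 10. Shares of all tested genes under these alternatives are not given here. No gene of the 36 passed in a comparison between treatments under any alternative run. Signal limits Pcna, Mcm3, Pole and Ccne2, which were above background on 7 to 16 of the 64 arrays.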
